A study of Mus musculus with 34 samples.

Results

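Gene expression in mouse embryonic stem cells (ESCs), the self-renewing lines grown from the blastocyst, was compared with that in the inner cell mass (ICM), the group of blastocyst cells from which such lines are derived. The comparison rests on 5 of the 32 arrays of the study, 2 of ESCs and 3 of ICM, and takes in every probe set that the platform annotation gives to a single gene symbol, 10833 probe sets for 8251 genes. The ESCs were male C57Bl/6 cells between passages 9 and 14, kept in medium with serum and leukaemia inhibitory factor (LIF), and the labels call the arrays biological replicates without saying whether they came from 1 line. The ICMs came from E3.5 blastocysts of mixed sex by immunosurgery, which lyses the outer cells with antibody and complement. ICM 2 and ICM 3 carried the strain label C57Bl/6 x C3H F1, and ICM 1 came from a further cross of such mice with CD1. Growth in culture, strain and sex therefore differ together between the groups and cannot be told apart. ESC column 3 is the mean of the other two to within 1e-06 on the log2 scale and was not counted.

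The other 8 groups, all C57Bl/6, entered the model that estimates the spread, and serve below for levels only. They were male embryonic germ cells derived at E12.5 and grown to passage 19 in serum and LIF (EGC, 3 arrays), and primordial germ cells (PGC), isolated by their Oct4/GFP signal. Of these, 4 arrays held both sexes at E11.5, and 3 arrays each held females or males at E13.5. Cells without the signal from gonad and mesonephros at E11.5 (SGM, 4 arrays) and embryonic fibroblasts from E13.5 at passage 2 (MEF, 6 arrays) were both of mixed sex. Neural stem cells grown as neurospheres in EGF (NSC, 2 arrays, mixed sex) and sorted bone marrow haematopoietic stem cells (HSC, 2 arrays, male) were from mice of 8 weeks.

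In the blastocyst an outer epithelium, the trophectoderm, forms the placenta, while the inner cell mass divides into the epiblast, which makes the embryo proper, and the primitive endoderm, which makes the yolk sac and lays down basement membrane. The transcription factors Oct4 (gene Pou5f1), Sox2 and Nanog hold epiblast cells and ESCs in a pluripotent state. ESCs are the in vitro counterpart of the epiblast, multiply without limit and are kept undifferentiated by LIF acting through STAT3.

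Values are log2 expression values from RMA (robust multi-array average), differences are ESC minus ICM on that scale with the standard error (SE) from limma, and arrays carry no read depth, so their number limits the precision. A probe set was called at an adjusted p under 0.05 (limma with all 10 groups sharing 1 estimate of spread, Benjamini-Hochberg over 10833 probe sets, two-sided). A gene is represented by its brightest probe set. Because 2 and 3 arrays are few, a fit to the 5 arrays alone, named the 5-array fit, was also made. Its adjusted p is given for many of the genes whose call it ends. A gene without that value did not necessarily keep its call in the 5-array fit.

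The 3 ICM arrays differed from each other much more than the 2 ESC arrays did. A difference of 2-fold or more separated 257 probe sets between ICM 1 and ICM 2, 373 between ICM 1 and ICM 3 and 314 between ICM 2 and ICM 3, but 10 between the ESC arrays. The median SD over probe sets was 0.09 in ESCs and 0.20 in ICM, and it lay between 0.11 and 0.15 in the other 8 groups. The estimate shared by all 10 groups had a median SD of 0.16, below that of ICM. For genes that vary among the ICM arrays, the SEs and p-values given here therefore understate that spread. For scale, an ESC array and an ICM array differed by 2-fold or more at 702 to 843 probe sets. In 653 of the 10833 probe sets, or 6.03%, the ICM arrays spanned a range of 2-fold or more. The array farthest from the other two was ICM 1 for 3904 probe sets, ICM 2 for 3216 and ICM 3 for 3713, so no single array carried the spread over all probe sets. Among the 653 with a range of 2-fold or more, ICM 3 was farthest most often, for 280 (42.9%). ICM 1 was farthest for 215 of them (32.9%) and ICM 2 for 158 (24.2%).

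Part of the spread lay in genes of the outer layer of the blastocyst. Of 8251 genes, 90 stood at least 2-fold higher in both ICM 1 and ICM 2 than in ICM 3, and 21 stood at least 2-fold higher in ICM 3 than in both other ICM arrays. The trophectoderm list held 12 of the 90 among its 35 measured members and none of the 21, while the primitive endoderm list held 1 of the 90 and 4 of the 21 among its 36. Summed over 10 trophectoderm markers, linear signal was 1394 and 1262 in the ESC arrays, against 7383, 7357 and 1544 in ICM 1, 2 and 3. ICM 3 was therefore near the ESC arrays for these markers, and ICM 1 and ICM 2 were far above them. Cdx2, the trophectoderm's defining homeobox gene, was not called, at 6.33 and 5.49 in the ESC arrays and 6.31, 6.37 and 5.83 in the ICM arrays, where MEFs averaged 6.00, but without ESC 1 it was called lower in ESCs (-0.68, adjusted p = 0.0130). The summed signal of 12 primitive endoderm markers was 4147 and 4457 in the ESC arrays, against 10645, 12899 and 14138 in the ICM arrays, which places all 3 ICM arrays above both ESC arrays. ICM 1 and ICM 2, where the trophectoderm signal was high, carry different strain labels, and ICM 2 shares its label with ICM 3. The cause of the difference in this signal was not tested. Results that turn on the signal are given below also with ICM 3 as the only ICM array. In bulk RNA, fewer cells of a type and less RNA per cell cannot be told apart.

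Of the labelled cell types, the ESC arrays and the ICM arrays both carried their defining genes. Summed over 10 epiblast and ESC markers, linear signal was 30587 and 31173 in the ESC arrays, against 32732, 29192 and 37827 in the ICM arrays. Markers of feeder fibroblasts, which often support ESC cultures, summed over 9 genes to 4365 and 4705 in the ESC arrays and 3781, 4095 and 3845 in the ICM arrays, and none of the 9 was called. In the longer fibroblast and feeder list of 42 genes 5 were called higher (11.9%, against 15.2% of all genes) and 2 lower (4.76%, against 12.52%), with 3 higher without ESC 2 and 0 lower without ESC 1. S100a6, a calcium-binding protein, read 11.30 and 11.67 in the ESC arrays and 8.60, 9.36 and 9.10 in the ICM arrays (difference 2.47 ± 0.23), and Anxa1, annexin A1, read 10.77 and 11.09 in the ESC arrays and 9.32, 9.73 and 9.61 in the ICM arrays (difference 1.38 ± 0.22). The part of fibroblasts in the results was not tested. The control probe sets for Gapdh read 2.46 and 2.85 log2 units higher at the 3′ than at the 5′ end in the ESC arrays, against 4.05, 3.77 and 4.17 in the ICM arrays, while those for beta-actin gave 1.37 and 1.75 in the ESC arrays and 1.21, 1.57 and 1.86 in the ICM arrays. By the Gapdh probes the 5′ end was less well covered in every ICM array than in every ESC array, by the actin probes it was not, and the part of this in the results was not tested.

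ESCs differed from the inner cell mass at a large part of the array. Of the 8251 genes, 2288 were called, or 27.7%, 1255 of them higher (15.2%) and 1033 lower (12.52%) in ESCs. At least a 2-fold difference was reached by 205 of the genes called higher and 297 of those called lower, which is 2.48% and 3.6% of all genes, or 6.08% together. Over probe sets, 2961 of 10833 were called (27.3%), of which 1655 were higher (15.3%) and 1306 lower (12.1%). Centring each array on its median reversed that balance, to 1259 higher and 1658 lower, so the split between rises and falls depends on the scaling. The 5-array fit called 859 (7.93%), 423 of them higher (3.9%) and 436 lower (4.02%). At least 2-fold calls numbered 597 probe sets (5.51%), 248 higher (2.29%) and 349 lower (3.22%), and 487 of the 597 were also called by the 5-array fit. Of the 205 genes at least 2-fold higher, 101 were at least 2-fold above each of the 3 ICM arrays, and of the 297 at least 2-fold lower, 154 were at least 2-fold below each of them. ICM 3 alone kept 65 of those 297 genes from this, against 40 for ICM 1 and 15 for ICM 2.

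Ranked by the brightest probe set of each gene, as are all largest changes named here, the largest rise in ESCs belonged to Peg3, an imprinted gene that is expressed from the paternal copy and encodes a zinc finger protein. Its values were 11.78 and 11.91 in the ESC arrays, against 8.08, 7.81 and 7.65 in ICM 1, 2 and 3. The groups lay far apart, and the difference was 4.00 ± 0.26, or 16.0-fold (adjusted p = 2.94e-12). Both dimmer probe sets for Peg3 were also called higher, by 0.58 and 0.73.

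Slc38a2, a transporter that brings small neutral amino acids into the cell, rose as well, with 9.51 and 9.64 in the ESC arrays against 5.84, 6.55 and 5.99 in the ICM arrays. That is a difference of 3.45 ± 0.27 (adjusted p = 1.31e-10), seen on the brightest of its 4 probe sets and on none of the 3 dim ones. Slc27a2, a fatty acid transporter that also activates very long chain fatty acids, read 8.58 and 8.83 in the ESC arrays and 5.83, 5.79 and 5.50 in the ICM arrays, a difference of 3.00 ± 0.16. Zmat3, a p53 target that encodes a zinc finger RNA-binding protein, read 9.41 and 9.73 in the ESC arrays and 6.26, 6.66 and 6.84 in the ICM arrays, a difference of 2.99 ± 0.16. In these genes every ESC array stood above every ICM array, and the ICM arrays stayed within 1 log2 unit of each other.

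Of the 12 largest rises, 4 lie on the X chromosome. Tceal9, of the family of transcription elongation factor A-like proteins, read 10.78 and 10.93 in the ESC arrays and 7.48, 8.33 and 5.96 in the ICM arrays. ICM 3 was the lowest and ICM 2 the highest, with 2.37 log2 units between them (difference 3.60 ± 0.34, adjusted p = 6.24e-09). Bex4, a small brain-expressed X-linked gene, was 11.53 and 11.48 in the ESC arrays and 8.97, 8.99 and 8.80 in the ICM arrays, without overlap and with little spread (difference 2.59 ± 0.14, adjusted p = 9.19e-14). Rhox5, a homeobox gene of the reproductive X-linked cluster, was 10.69 and 10.63 in the ESC arrays and 8.38, 7.96 and 7.89 in the ICM arrays (difference 2.58 ± 0.17, adjusted p = 5.40e-12). Pdk3, the fourth, is described with glycolysis below. The remaining large rises were Epb41l4a (3.03), Dhrs7 (2.92) and Calml4 (2.89), each without overlap.

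By brightest probe sets, the largest fall in ESCs was that of Pramel6, one of the PRAME-like genes that are active in the early mouse embryo. It read 5.65 and 5.42 in the ESC arrays and 11.44, 11.37 and 10.37 in the ICM arrays, a difference of -5.52 ± 0.19 or 45.9-fold (adjusted p = 1.65e-18). Its neighbour in the family, Pramel7, read 6.17 and 6.21 in the ESC arrays and 9.76, 9.87 and 9.50 in the ICM arrays, a difference of -3.52 ± 0.10 (adjusted p = 4.83e-20). Both genes were high in every ICM array.

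A homeobox gene and an ETS factor also fell. Crxos, a homeobox gene, read 4.04 and 4.33 in the ESC arrays and 7.69, 8.92 and 8.47 in the ICM arrays (difference -4.17 ± 0.23, adjusted p = 9.19e-14). Its other probe set, dimmer over all arrays, read 4.06 and 3.67 in the ESC arrays and 10.37, 10.64 and 10.15 in the ICM arrays, a larger difference of -6.52. Spic, an ETS-family transcription factor best known from red pulp macrophages, read 4.45 and 4.60 in the ESC arrays and 8.77, 8.01 and 8.49 in the ICM arrays (difference -3.90 ± 0.17, adjusted p = 3.96e-16). Fbp2, the muscle form of fructose-1,6-bisphosphatase and thus an enzyme of gluconeogenesis, read 6.36 and 6.53 in the ESC arrays and 9.36, 9.62 and 11.09 in the ICM arrays (difference -3.58 ± 0.26). ICM 3 was the highest array for Fbp2, and no array of either group overlapped the other group for any of the 3 genes.

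A pair of autophagy genes stood among the 12 largest falls. Calcoco2, whose human product NDP52 is an autophagy receptor, read 6.05 and 6.62 in the ESC arrays and 10.94, 11.10 and 10.44 in the ICM arrays, a difference of -4.49 ± 0.19 or 22.5-fold (adjusted p = 3.96e-16). Gabarapl2, a member of the Atg8 family that coats autophagosome membranes, read 10.42 and 10.72 in the ESC arrays and 13.68, 13.72 and 14.14 in the ICM arrays, a difference of -3.28 ± 0.14 (adjusted p = 3.96e-16). The ICM arrays of Gabarapl2 spanned 0.47 log2 units. BC053393, Eomes, Rflnb and Akr1b8, also among the 12 largest falls, were high in ICM 1 and ICM 2 and much lower in ICM 3. BC053393, for example, read 3.98 and 3.59 in the ESC arrays and 9.58, 10.42 and 5.92 in the ICM arrays.

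**Figure D1:**
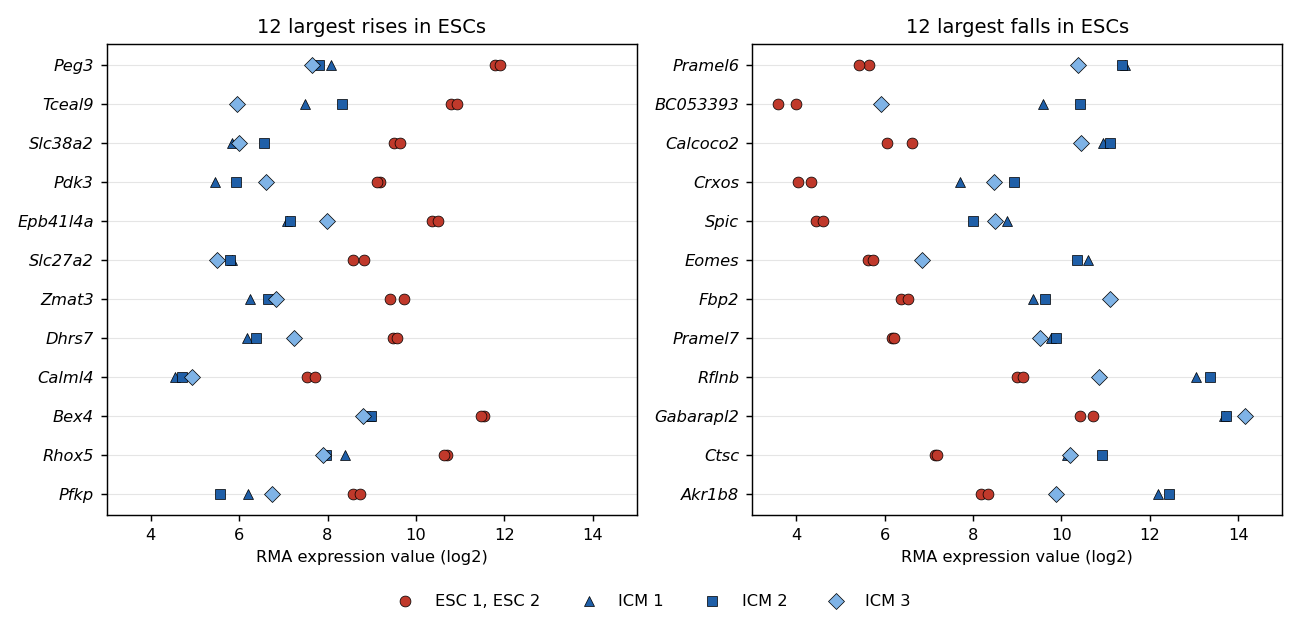
Expression values (log2, horizontal axis) of the 12 genes with the largest rise and the 12 with the largest fall in ESCs, with 1 point per array, ESC arrays as circles and ICM arrays as triangles, squares and diamonds. No ESC array overlaps an ICM array, and ICM 3 lies well below ICM 1 and ICM 2 for BC053393, Eomes, Rflnb and Akr1b8.

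The genes that hold the pluripotent state did not move together. Of 31 measured members of the pluripotency list, 5 were called higher and 9 lower in ESCs, and 17 were not called. Shares of 16.1% and 29.0% stand beside 15.2% and 12.52% of all genes, and the median difference was 0.03, against 0.04 over all genes. Without ESC 1, and likewise without ICM 2, the count of members called higher was 3. Pou5f1, which encodes Oct4, read 10.89 and 10.37 in the ESC arrays and 10.81, 10.01 and 11.20 in the ICM arrays, with overlap and a difference of -0.05 ± 0.23 (adjusted p = 0.902). Sall4, Dppa5a, Utf1 and Gdf3 were not called either, with differences of 0.11, 0.04, 0.13 and 0.03. At this number of arrays differences of that size were not detectable.

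Sox2, the partner of Oct4 on DNA, was the member with the largest rise. It read 11.81 and 11.82 in the ESC arrays and 10.35, 10.15 and 9.92 in the ICM arrays, a difference of 1.68 ± 0.17 or 3.19-fold (adjusted p = 1.16e-08). Zfp281, a zinc finger repressor that acts with Nanog, read 10.87 and 11.02 in the ESC arrays and 9.21, 9.88 and 10.05 in the ICM arrays (difference 1.24 ± 0.21, adjusted p = 5.38e-05). Nr0b1, which encodes the orphan nuclear receptor Dax1, was 0.98 ± 0.19 higher (adjusted p = 0.000258, or 0.0975 in the 5-array fit). Nanog was not called, at 12.22 and 12.08 in the ESC arrays and 12.95, 11.92 and 13.12 in the ICM arrays (difference -0.51 ± 0.23, adjusted p = 0.106). ICM 2 was the array below the ESC arrays for Nanog, and without it the difference was -0.88 (adjusted p = 0.00110).

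Falls were found at members known from the naive state and the preimplantation embryo. Dppa3 (also called Stella), a maternal and germ cell factor that protects the genome from demethylation, read 9.34 and 9.33 in the ESC arrays and 11.33, 11.25 and 11.34 in the ICM arrays, a difference of -1.98 ± 0.20 (adjusted p = 2.33e-08). Dppa2, which opens early embryonic promoters, read 10.52 and 10.45 in the ESC arrays and 12.14, 11.66 and 12.30 in the ICM arrays (difference -1.55 ± 0.17). Fbxo15, an Oct4 and Sox2 target that encodes an F-box protein, read 10.53 and 10.76 in the ESC arrays and 11.72, 12.21 and 12.30 in the ICM arrays (difference -1.43 ± 0.27). For these 3 genes both ESC arrays lay below all 3 ICM arrays.

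Transcription factors of the naive network fell less. Nr5a2, an orphan nuclear receptor that binds the Oct4 gene, was lower (difference -1.14 ± 0.12), as were Tfcp2l1, a target of STAT3 (difference -1.08 ± 0.19), and Zfp42, which encodes the ESC marker Rex1 (difference -0.97 ± 0.25), all without overlap. Zfp42 lost its call without ESC 1 (adjusted p = 0.0578). Klf5, a Kruppel-like factor of both the epiblast and the trophectoderm, read 7.60 and 7.58 in the ESC arrays and 9.76, 8.62 and 8.61 in the ICM arrays (difference -1.41 ± 0.25, adjusted p = 0.000111, or 0.0513 in the 5-array fit). Epcam, an epithelial adhesion molecule, read 8.34 and 8.26 in the ESC arrays and 10.42, 10.63 and 8.95 in the ICM arrays, high in ICM 1 and ICM 2 as the trophectoderm genes were, and its call ended without those arrays (difference -0.65, adjusted p = 0.151). Klf2, Klf4, Esrrb, Fgf4, Tdgf1 and Cdh1 were not called, with differences of 0.44, -0.57, 0.33, 0.27, 0.72 and 0.08. Esrrb was called higher in ESCs without ESC 2 (0.50, adjusted p = 0.0347) or ICM 1 (0.50, adjusted p = 0.004). Without ICM 3, Fgf4 (0.56, adjusted p = 0.00182) and Tdgf1 (0.93, adjusted p = 0.0178) were called higher.

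Primitive endoderm genes were lower in ESCs as a list. Of 36 measured members 16 were called lower (44.4%, against 12.52% of all genes), 8 of them by at least 2-fold, and 2 were called higher. The median difference of the 36 was -0.28, against 0.04 over all genes. With ICM 3 as the only ICM array the count of members called lower was again 16, and in the 5-array fit it was 8.

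Basement membrane genes were among the larger falls. Col4a1, a chain of type IV collagen, read 8.58 and 8.73 in the ESC arrays and 10.63, 10.46 and 11.94 in the ICM arrays, a difference of -2.35 ± 0.33 or 5.12-fold (adjusted p = 4.50e-06). Nid1, the nidogen that links laminin to collagen, read 5.71 and 5.74 in the ESC arrays and 7.37, 7.29 and 7.53 in the ICM arrays (difference -1.67 ± 0.21, adjusted p = 5.98e-07). Lama1, the laminin alpha 1 chain, read 6.81 and 6.92 in the ESC arrays and 7.96, 7.48 and 9.36 in the ICM arrays (difference -1.40 ± 0.28, adjusted p = 0.000485, or 0.129 in the 5-array fit). ICM 3 was the highest array for Col4a1 and Lama1. Sparc, a matrix glycoprotein, and P4ha2, a collagen prolyl hydroxylase, fell as well (differences -1.24 ± 0.24 and -1.45 ± 0.16).

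Of the signalling receptors and regulators of the lineage, Pdgfra, the receptor that marks primitive endoderm, read 8.38 and 8.52 in the ESC arrays and 9.89, 9.66 and 10.67 in the ICM arrays (difference -1.62 ± 0.28, adjusted p = 8.37e-05). One of its dimmer probe sets differed by -0.42 and the other did not move, at 0.02. Fgfr2, an FGF receptor of both extraembryonic layers, was lower (difference -0.99 ± 0.15, adjusted p = 1.99e-05, or 0.0536 in the 5-array fit). Sox17, the lineage's SRY-box factor, read 7.28 and 7.18 in the ESC arrays and 7.82, 7.57 and 8.21 in the ICM arrays on its brightest probe set (difference -0.64 ± 0.13, adjusted p = 0.000820, or 0.107 in the 5-array fit). On its dimmer probe set it read 6.97 and 6.84 in the ESC arrays, against 8.48, 7.97 and 9.42 in the ICM arrays, a difference of -1.72 ± 0.21 (adjusted p = 4.52e-07).

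The GATA factors of the lineage did not show such a fall on their brightest probe sets. Gata4 read 8.77 and 8.56 in the ESC arrays and 8.55, 8.46 and 8.86 in the ICM arrays, and Gata6 read 6.79 and 6.78 in the ESC arrays and 6.44, 6.61 and 6.37 in the ICM arrays, neither of them called. The mean over the 3 probe sets of Gata6, in contrast, was called lower, at -0.52 (adjusted p = 0.0001). Without ICM 2 its brightest probe set was called higher (0.38, adjusted p = 0.0445), so the direction for Gata6 depends on the probe set. Visceral endoderm genes of later stages, among them Afp, Ttr and Hnf4a, were not called, with differences of 0.09, 0.15 and 0.15. The 2 members called higher were Apoe, a lipid carrier, by 1.14 ± 0.27 (adjusted p = 0.00200, or 0.0552 against ICM 3 alone), and Nid2, the second nidogen, by 2.12 ± 0.41 (adjusted p = 0.000312, or 0.0891 in the 5-array fit). Nid2 spanned 2.53 log2 units among the ICM arrays, with 7.29 and 7.66 in the ESC arrays and 4.17, 6.69 and 5.20 in the ICM arrays.

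The basement membrane list overlaps with this lineage. Of its 24 members 10 were called lower (41.7%, against 12.52% of all genes) and 4 higher (16.7%, against 15.2%). Without ESC 1, 6 were called lower. Col18a1, the source of endostatin, was called higher, at 10.63 and 10.58 in the ESC arrays and 8.99, 8.69 and 9.15 in the ICM arrays (difference 1.66 ± 0.17, adjusted p = 2.00e-08). Of its 4 dimmer probe sets, 3 were also called higher, by 4.03, 2.54 and 0.72, and the fourth was not called (0.32).

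Trophectoderm genes were lower in ESCs as a list, and as a list they read lower in ICM 3 than in ICM 1 and ICM 2. Of 35 measured members 15 were called lower (42.9%, against 12.52% of all genes) and none higher, with a median difference of -0.43. The 5-array fit called 2 lower. The fit with ICM 3 as the only ICM array assumes that it varies as the other groups do. Over the 35 members, ICM 3 minus the mean of ICM 1 and ICM 2 had a median of -0.76, against 0.01 over all genes. Without ICM 3, 18 were called lower.

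Single genes show the same split. Eomes, a T-box factor needed for trophoblast development, read 5.62 and 5.73 in the ESC arrays and 10.61, 10.35 and 6.84 in the ICM arrays (difference -3.60 ± 0.55, adjusted p = 1.47e-05, or 0.0783 in the 5-array fit). It kept its call against ICM 3 alone, at -1.17. Krt18, a keratin of simple epithelia, read 7.31 and 6.58 in the ESC arrays and 11.26, 11.14 and 7.57 in the ICM arrays (difference -3.05 ± 0.57, or -0.63 and not called against ICM 3 alone). Its partner Krt8 read 8.92 and 8.88 in the ESC arrays and 11.18, 11.43 and 9.29 in the ICM arrays (difference -1.74 ± 0.38, or -0.39 and not called against ICM 3 alone). For both keratins ICM 3 lay above the ESC arrays by far less than ICM 1 and ICM 2 did.

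Gata3, which directs trophectoderm fate together with Cdx2, read 5.85 and 5.65 in the ESC arrays and 8.36, 8.33 and 5.66 in the ICM arrays, so that ICM 3 lay between the ESC arrays (difference -1.70 ± 0.40, or 0.094 against ICM 3 alone). Tspan8, a tetraspanin, read 4.84 and 4.41 in the ESC arrays and 7.87, 8.61 and 4.98 in the ICM arrays, and Fabp3, a fatty acid carrier, read 7.84 and 7.88 in the ESC arrays and 10.18, 11.06 and 7.23 in the ICM arrays. Fabp3 in ICM 3 was below both ESC arrays, and its call ended without ESC 1, ESC 2, ICM 1 or ICM 2 (adjusted p = 0.122, 0.103, 0.0987 and 0.200). Tight junction gene Cldn7 differed by -1.60 ± 0.27, and by -0.71 against ICM 3 alone. Gata3, Tspan8, Cldn7, Krt18 and Krt8 were not called in the 5-array fit, with adjusted p of 0.218, 0.148, 0.0638, 0.120 and 0.116. Dab2, an endocytic adaptor of both extraembryonic layers, read 7.79 and 8.40 in the ESC arrays and 11.34, 12.62 and 9.64 in the ICM arrays, so all 3 ICM arrays were above the ESC arrays, although 1 of its dimmer probe sets was not called (-0.20).

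Some members of the list were not called with all arrays. Elf5, Hand1, Ascl2 and Tpbpa, genes of the trophoblast after implantation, had differences of -0.59, -0.05, 0.09 and 0.01. Elf5 read 4.42, 5.83 and 4.11 in ICM 1, 2 and 3. It was called lower in ESCs without ICM 1 (-0.78, adjusted p = 0.0357) or ICM 3 (-0.93, adjusted p = 0.00487). Tfap2c, which is shared by trophoblast, ESCs and germ cells, was not called, at 11.66 and 11.57 in the ESC arrays and 11.47, 11.44 and 10.69 in the ICM arrays. Tfap2c was called higher in ESCs without ICM 1 (0.56, adjusted p = 0.0344) or ICM 2 (0.54, adjusted p = 0.0474), and differed by 0.93 against ICM 3 alone.

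In the adhesion and keratin list 12 of 41 members were called lower (29.3%, against 12.52% of all genes) and 1 higher (2.44%, against 15.2%). Leaving out 1 array brought the 12 to between 9 and 13. Of the 41 members, 9 were at least 2-fold higher in both ICM 1 and ICM 2 than in ICM 3. An exception was Dsc2, a desmosomal cadherin, which read 4.89 and 5.24 in the ESC arrays and 7.12, 8.74 and 7.02 in the ICM arrays and was thus high in all 3 ICM arrays (difference -2.57 ± 0.28, adjusted p = 5.68e-08). The other probe set of Dsc2 was not called (-0.15).

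**Figure D2:**
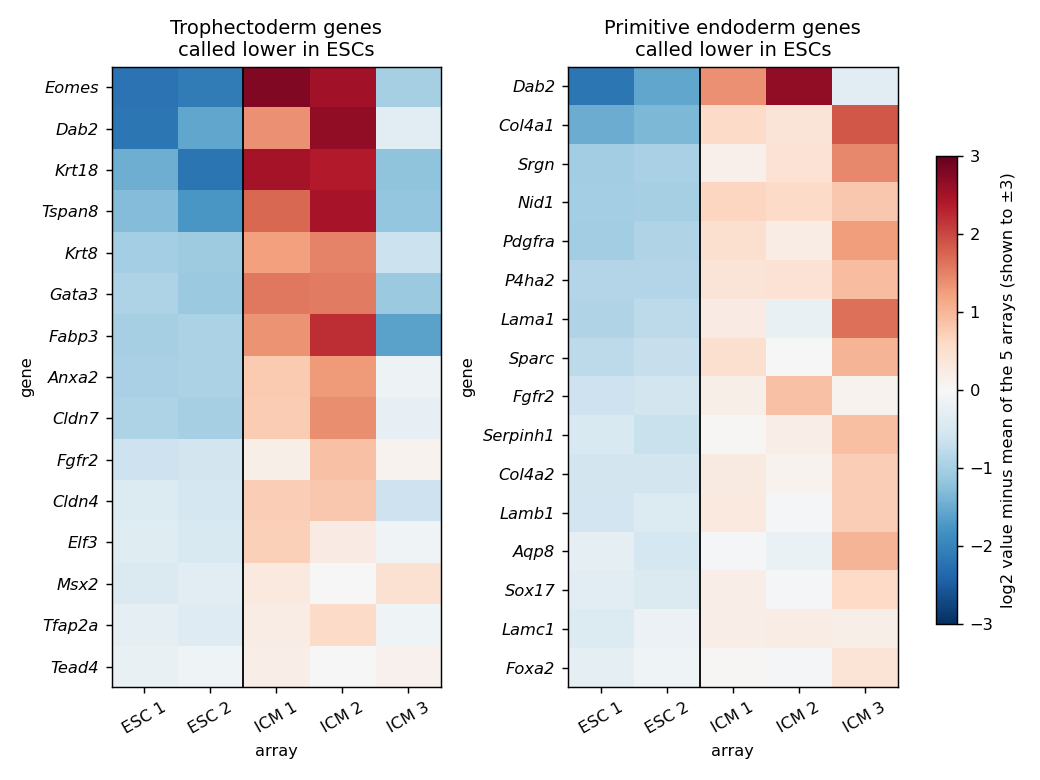
Trophectoderm (left) and primitive endoderm (right) genes called lower in ESCs, 1 row per gene and 1 column per array, coloured by the log2 value minus the gene's mean over the 5 arrays. Trophectoderm genes such as Eomes and Krt18 are high in ICM 1 and ICM 2 and nearer the ESC level in ICM 3. Most primitive endoderm genes, in contrast, are higher in all 3 ICM arrays than in the ESC arrays and highest in ICM 3.

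Lysosomal genes gave the largest share of falls of the 36 lists examined. Lysosomes are acid compartments in which hydrolases such as cathepsins degrade what endocytosis and autophagy deliver, and a proton pump, the vacuolar ATPase, keeps them acid. Of 48 measured members 24 were called lower in ESCs (50%, against 12.52% of all genes), 17 of them by at least 2-fold, and 1 was called higher. The median difference was -0.49, against 0.04 over all genes. The 5-array fit called 13 lower, and with ICM 3 as the only ICM array 21 were called lower, so the falls did not rest on ICM 1 and ICM 2.

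Ctsc, the cathepsin that activates granule proteases, had the largest difference. It read 7.14 and 7.18 in the ESC arrays and 10.12, 10.92 and 10.19 in the ICM arrays, a difference of -3.25 ± 0.29 or 9.50-fold (adjusted p = 1.48e-09), and both of its dimmer probe sets were also lower. Cd63, a tetraspanin of late endosomes and exosomes, read 11.49 and 11.499 in the ESC arrays and 14.04, 14.77 and 13.93 in the ICM arrays (difference -2.75 ± 0.21, adjusted p = 1.04e-10). Hexa, the hexosaminidase that degrades gangliosides, read 9.30 and 9.23 in the ESC arrays and 11.62, 11.37 and 11.72 in the ICM arrays (difference -2.31 ± 0.20, adjusted p = 7.25e-10). In all of these the ESC arrays were nearly equal and every ICM array stood well above them.

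Further members were chosen for mention after their values were seen. Npc2, which carries cholesterol out of the lysosome, read 10.83 and 10.71 in the ESC arrays and 12.41, 12.25 and 12.19 in the ICM arrays (difference -1.51 ± 0.11, adjusted p = 3.27e-11). Ctsa, the protective cathepsin A, read 8.82 and 8.99 in the ESC arrays and 10.37, 10.19 and 10.38 in the ICM arrays (difference -1.41 ± 0.17). Lamp1, a main glycoprotein of the lysosomal membrane, read 12.56 and 12.53 in the ESC arrays and 13.60, 13.74 and 13.81 in the ICM arrays (difference -1.18 ± 0.12). Glb1, the lysosomal beta-galactosidase, differed by -1.25 ± 0.18. Ctsl, cathepsin L, differed by -1.77 ± 0.30 and was not called in the 5-array fit (adjusted p = 0.0609).

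Of the subunits of the proton pump, some were called lower, 1 was called higher and the others were not called. Atp6v1b2, of the ATP-splitting part, read 11.26 and 11.20 in the ESC arrays and 12.47, 12.504 and 12.62 in the ICM arrays (difference -1.30 ± 0.12, adjusted p = 1.99e-09). The member called higher was another pump subunit, Atp6v0a1, at 6.95 and 6.71 in the ESC arrays and 6.49, 6.35 and 6.35 in the ICM arrays (adjusted p = 0.00207, or 0.129 in the 5-array fit and 0.0909 without ESC 1). Psap, the precursor of the saposins that help hydrolases reach their lipids, was lower on its bright probe set (-2.21 ± 0.19) and on a dimmer one (-0.83) but higher on the dimmest (0.52).

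The promoters of these genes were searched for the letters CACGTG, the E-box core bound by transcription factor EB (TFEB), the regulator of lysosomal genes, because 24 of the 48 members were called lower. The letters read the same on both strands. Promoters of 300 bases, from 250 before to 50 after the annotated start, were taken from RefSeq (build GRCm38.p6) and were found for 39 of the 48 members. CACGTG occurred in 15 of the 39 (38.5%), against 753 of 6576 array genes with a promoter in the table (11.45%) and 7.15% of all 32851 promoters. Among members called lower with a promoter it occurred in 10 of 21, and among the others in 5 of 18. The longer TCACGTGA, which contains it, occurred in 7 of the 39 (17.9%), against 1.92% of array genes and 0.97% of all promoters. A match of letters is a description and not a binding site.

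The 4 members with the largest falls that carry the letters show how differently they are placed, with CACGTG in capitals. Ctsl (chr13:64370471-64370770, minus strand) holds it 236 bases before the start, Ctsa (chr2:164833523-164833822, plus strand) 12 before and again 5 after it, Glb1 (chr9:114400828-114401127, plus strand) 48 before it, and Lamp1 (chr8:13158911-13159210, plus strand) at 4 places between 61 and 15 bases before it.
Ctsl: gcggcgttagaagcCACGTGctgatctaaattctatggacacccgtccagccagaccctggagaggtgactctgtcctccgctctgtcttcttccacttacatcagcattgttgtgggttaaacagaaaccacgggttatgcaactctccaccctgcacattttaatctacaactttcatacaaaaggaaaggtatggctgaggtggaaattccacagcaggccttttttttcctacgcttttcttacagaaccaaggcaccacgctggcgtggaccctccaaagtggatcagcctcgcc
Ctsa: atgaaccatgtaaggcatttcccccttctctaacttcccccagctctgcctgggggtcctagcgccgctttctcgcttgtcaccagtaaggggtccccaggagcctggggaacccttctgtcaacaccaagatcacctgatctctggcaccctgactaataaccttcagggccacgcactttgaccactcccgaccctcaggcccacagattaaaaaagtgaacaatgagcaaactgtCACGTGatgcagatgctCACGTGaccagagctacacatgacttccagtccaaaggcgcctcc
Glb1: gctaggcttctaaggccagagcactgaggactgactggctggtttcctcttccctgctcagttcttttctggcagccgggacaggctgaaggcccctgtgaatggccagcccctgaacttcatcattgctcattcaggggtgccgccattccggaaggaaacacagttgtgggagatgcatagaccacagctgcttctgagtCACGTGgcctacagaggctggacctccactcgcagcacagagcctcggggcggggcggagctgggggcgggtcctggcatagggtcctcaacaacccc
Lamp1: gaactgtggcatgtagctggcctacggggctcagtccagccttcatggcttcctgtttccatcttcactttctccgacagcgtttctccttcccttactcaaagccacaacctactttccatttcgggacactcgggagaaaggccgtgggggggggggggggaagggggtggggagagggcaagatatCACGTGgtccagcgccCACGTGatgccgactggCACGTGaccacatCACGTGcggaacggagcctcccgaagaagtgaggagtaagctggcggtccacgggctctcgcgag

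Glycolytic genes gave the largest share of rises. Glycolysis turns glucose to pyruvate, lactate dehydrogenase turns pyruvate to lactate, and pyruvate dehydrogenase kinases such as Pdk1 and Pdk3 hold pyruvate back from the mitochondria. Of 29 measured members of the glycolysis and lactate list, 13 were called higher in ESCs (44.8%, against 15.2% of all genes), 6 of them by at least 2-fold, and 1 was called lower. The median difference was 0.42, against 0.04 over all genes. In the 5-array fit 7 were called higher, and with ICM 3 as the only ICM array 10. The Gapdh control probe sets, whose 3′ to 5′ differences are given above, measure a gene of this pathway too.

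Pdk3 read 9.20 and 9.12 in the ESC arrays and 5.45, 5.93 and 6.60 in the ICM arrays, a difference of 3.17 ± 0.20 or 8.99-fold (adjusted p = 2.04e-12). Pdk1, the family member known as a target of hypoxia-inducible factor (HIF), read 10.93 and 11.14 in the ESC arrays and 8.26, 8.68 and 8.94 in the ICM arrays, a difference of 2.41 ± 0.19 (adjusted p = 1.27e-10). Pfkp, the platelet form of the phosphofructokinase that commits sugar to glycolysis, read 8.58 and 8.72 in the ESC arrays and 6.20, 5.56 and 6.75 in the ICM arrays (difference 2.48 ± 0.32), and its dimmer probe set was also higher, by 1.39. Each of these genes was higher in both ESC arrays than in any ICM array.

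Enzymes of the later steps of the pathway also rose. Pgk1, an ATP-making enzyme encoded on the X chromosome, read 13.24 and 13.31 in the ESC arrays and 10.87, 11.28 and 11.35 in the ICM arrays (difference 2.11 ± 0.19, adjusted p = 3.08e-09). Ldha, the lactate dehydrogenase subunit of muscle, and Pgam1, a phosphoglycerate mutase, were singled out after their values were seen. Ldha read 13.61 and 13.64 in the ESC arrays and 11.35, 11.29 and 12.14 in the ICM arrays (difference 2.03 ± 0.20, adjusted p = 1.16e-08), and Pgam1 read 12.35 and 12.21 in the ESC arrays and 10.92, 10.62 and 11.61 in the ICM arrays (difference 1.23 ± 0.21). The member called lower was Egln1, the oxygen-sensing hydroxylase that marks HIF for destruction, at 8.91 and 8.90 in the ESC arrays and 10.39, 10.87 and 10.07 in the ICM arrays (difference -1.54 ± 0.15, adjusted p = 6.22e-09). Hif1a itself and the hexokinase gene Hk2, also named after their values were seen, were not called, with differences of 0.21 and -0.35.

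Promoters of this list were searched for ACGTG, the core to which HIF binds, on both strands, where CACGT is the same letters read from the other strand and CACGTG counts as a match too. It occurred in 18 of 28 members with a promoter (64.3%), against 27.8% of array genes and 19.6% of all promoters. It was present in 9 of 13 members called higher and in 9 of the 15 others. The promoters of the 3 members with the largest rises that carry it follow, with the letters in capitals. Pdk3 (chrX:93832101-93832400, minus strand) holds them once, 53 bases before the start, Pgk1 (chrX:106186850-106187149, plus strand) at 150 and 131 bases before it, and Ldha (chr7:46845554-46845853, plus strand) at 145, 48 and 34 bases before it.
Pdk3: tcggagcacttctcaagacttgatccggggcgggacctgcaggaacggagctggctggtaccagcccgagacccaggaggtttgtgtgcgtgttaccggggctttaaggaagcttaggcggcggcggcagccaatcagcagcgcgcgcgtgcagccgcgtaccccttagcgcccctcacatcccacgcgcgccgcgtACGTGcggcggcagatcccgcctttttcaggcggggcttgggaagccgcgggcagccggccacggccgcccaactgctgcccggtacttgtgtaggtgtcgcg
Pgk1: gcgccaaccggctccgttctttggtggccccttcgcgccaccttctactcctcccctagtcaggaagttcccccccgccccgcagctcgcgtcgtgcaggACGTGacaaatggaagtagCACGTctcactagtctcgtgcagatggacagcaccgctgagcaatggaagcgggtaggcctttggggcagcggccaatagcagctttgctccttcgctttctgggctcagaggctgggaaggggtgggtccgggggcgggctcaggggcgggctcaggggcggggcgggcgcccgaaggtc
Ldha: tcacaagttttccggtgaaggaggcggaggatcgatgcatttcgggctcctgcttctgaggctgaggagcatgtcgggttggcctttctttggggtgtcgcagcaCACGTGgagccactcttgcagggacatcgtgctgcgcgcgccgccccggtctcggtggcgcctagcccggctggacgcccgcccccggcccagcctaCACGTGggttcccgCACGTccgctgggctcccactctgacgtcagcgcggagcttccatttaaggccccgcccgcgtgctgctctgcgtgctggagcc

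Of 62 measured members of the oxidative phosphorylation list, which holds genes of the mitochondrial respiratory chain, 13 were called lower (21.0%, against 12.52% of all genes) and 2 higher, with a median difference of -0.12, and the 5-array fit called 2 lower. Leaving out ESC 1, ESC 2, ICM 2 or ICM 3 brought the 13 to 4, 7, 6 and 6, and quantile normalization to 7. Ndufs3, a core subunit of complex I, read 10.53 and 10.48 in the ESC arrays and 11.61, 11.65 and 11.84 in the ICM arrays (difference -1.19 ± 0.15, adjusted p = 1.22e-06). Uqcrc1, a core subunit of complex III, read 9.81 and 9.73 in the ESC arrays and 10.58, 10.79 and 10.93 in the ICM arrays (difference -0.99 ± 0.20). Both were lower in both ESC arrays than in all ICM arrays.

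**Figure D3:**
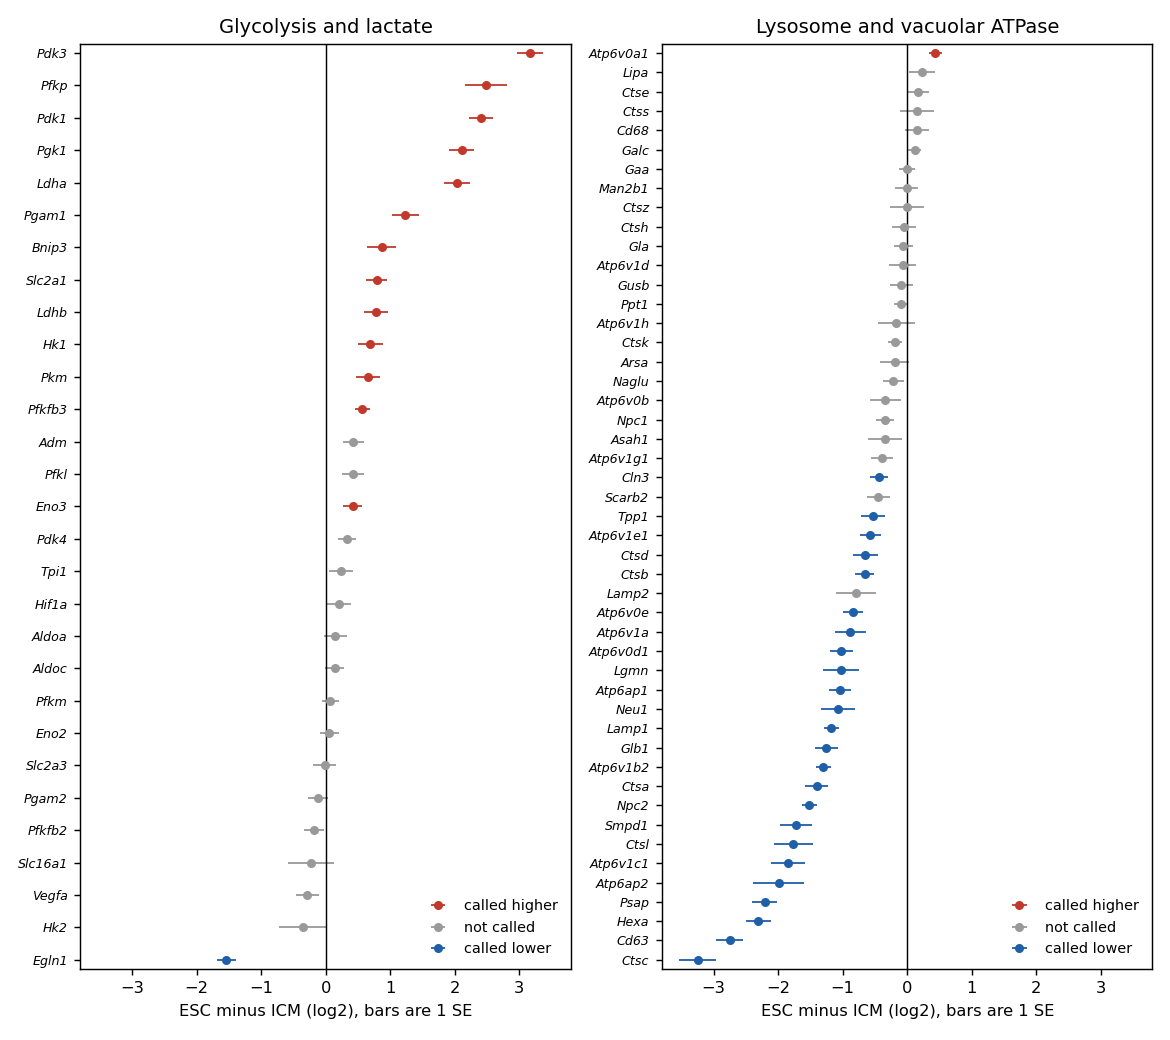
Difference between ESCs and ICM (log2, horizontal axis, bars are 1 SE from limma) for each measured member of the glycolysis list (left) and the lysosome list (right), red where called higher, blue where called lower and grey where not called. Glycolytic genes reach 3.17 for Pdk3 with 13 members called higher, and lysosomal genes reach -3.25 for Ctsc with 24 called lower.

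Of 31 members of the amino acid and one-carbon list 6 were called higher (19.4%, against 15.2% of all genes), or 3 without ESC 2, and 3 lower, or 5 without ICM 2. Mthfd2, a mitochondrial folate enzyme of dividing cells, read 12.19 and 12.32 in the ESC arrays and 10.37, 10.40 and 10.87 in the ICM arrays (difference 1.71 ± 0.16, adjusted p = 2.82e-09). Of 42 glutathione and antioxidant genes 12 were called higher (28.6%, against 15.2% of all genes), or 7 without ESC 2, and 4 lower. Gclm, a subunit of the enzyme that makes the precursor of glutathione, read 8.44 and 8.77 in the ESC arrays and 7.38, 6.81 and 6.20 in the ICM arrays (difference 1.81 ± 0.22). Mitochondrial superoxide dismutase Sod2, in contrast, was lower, at 10.37 and 10.47 in the ESC arrays and 11.87, 12.12 and 11.28 in the ICM arrays (difference -1.33 ± 0.19), as was glutathione transferase Gstp1 (difference -1.36 ± 0.20).

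Proteasome and heat shock genes were lower in part. Of 40 proteasome genes 12 were called lower (30%, against 12.52% of all genes) and 3 higher (7.5%, against 15.2%). The 5-array fit called 1 in each direction. Without ESC 1, and likewise without ESC 2, 7 were called lower. Psmb5, the chymotrypsin-like subunit, read 11.29 and 11.12 in the ESC arrays and 12.21, 12.41 and 12.82 in the ICM arrays (difference -1.28 ± 0.18), although its other probe set was not called (-0.04). Of 39 heat shock genes 9 were called lower (23.1%, against 12.52% of all genes) and 1 higher (2.56%, against 15.2%). Inducible Hsp70 gene Hspa1a read 7.95 and 8.18 in the ESC arrays and 12.504, 11.25 and 9.43 in the ICM arrays, and its near-identical neighbour Hspa1b, whose signal the probes may share, read 7.89 and 8.27 in the ESC arrays and 10.24, 11.20 and 9.25 in the ICM arrays. The ICM arrays spanned 3.08 log2 units for Hspa1a, from ICM 1 at the top to ICM 3, and against ICM 3 alone neither gene was called (adjusted p = 0.189 and 0.139). Dnajb1, the co-chaperone Hsp40, was lower with less spread, at 7.49 and 7.40 in the ESC arrays and 8.30, 8.89 and 9.13 in the ICM arrays (difference -1.33 ± 0.18, adjusted p = 2.99e-06).

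Imprinted genes, which are expressed from 1 parental copy, rose more often than they fell. Of 35 measured members 9 were called higher in ESCs (25.7%, against 15.2% of all genes) and 3 lower (8.57%, against 12.52%), with a median difference of 0.17. Leaving out 1 array brought the 9 to between 6 and 11. Besides Peg3, the paternally expressed Ndn and Mest rose. Ndn, which encodes necdin, read 8.70 and 9.13 in the ESC arrays and 7.51, 7.26 and 7.54 in the ICM arrays (difference 1.47 ± 0.15, adjusted p = 2.56e-08). Mest, of the hydrolase fold family, read 8.17 and 8.04 in the ESC arrays and 6.77, 6.79 and 6.52 in the ICM arrays (difference 1.41 ± 0.24, adjusted p = 6.25e-05).

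Maternally expressed members went both ways. Cdkn1c, an inhibitor of cyclin-dependent kinases, read 8.65 and 8.80 in the ESC arrays and 7.14, 7.51 and 7.50 in the ICM arrays (difference 1.34 ± 0.30, adjusted p = 0.00156). Igf2r, the receptor that clears Igf2 and also carries hydrolases to lysosomes, was named after its values were seen, at 9.56 and 9.38 in the ESC arrays and 10.55, 10.85 and 10.50 in the ICM arrays (difference -1.16 ± 0.23, adjusted p = 0.000328). Apart from these members, the X- and Y-linked sex markers were read as a check of the labels. Xist, which silences an X chromosome in female cells, was lower in the male ESCs, at 5.54 and 5.47, than in the mixed-sex ICM arrays, at 6.22, 7.37 and 6.38 (difference -1.15 ± 0.37, adjusted p = 0.0216, or 0.0789 in the 5-array fit). It lost its call without ICM 2, at -0.79 (adjusted p = 0.128), and without ESC 1 or ESC 2 (adjusted p = 0.0953 and 0.109). Of the Y-linked genes Eif2s3y, Kdm5d and Sry were not called, with differences of -0.68, 0.15 and 0.35. Eif2s3y read 6.73 and 7.16 in the male ESC arrays and 7.45, 7.92 and 7.52 in the ICM arrays. Sry was called higher without ICM 1 (0.52, adjusted p = 0.0133). With all arrays no Y-linked gene of the list was called higher in ESCs, so these genes gave the check no clear answer. Uty was lower in ESCs at values near the low end of the arrays (difference -0.47 ± 0.14). Its call ended in the 5-array fit (adjusted p = 0.104) and without ESC 1, ESC 2 or ICM 3 (adjusted p = 0.0822, 0.0702 and 0.0534).

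Of 20 genes of the histone and high mobility group list 8 were called lower (40%, against 12.52% of all genes) and 4 higher (20%, against 15.2%). Without ESC 1 the 8 became 5, without ESC 2 or with ICM 3 as the only ICM array 4, and in the 5-array fit 2, and the 4 became 2 without ESC 2 or without ICM 2. Hmga2, an architectural chromatin protein, read 7.40 and 7.28 in the ESC arrays and 8.20, 8.60 and 8.64 in the ICM arrays (difference -1.14 ± 0.18, adjusted p = 2.70e-05), and Hmgb2, another, read 9.63 and 9.59 in the ESC arrays and 7.60, 8.68 and 7.97 in the ICM arrays (difference 1.53 ± 0.36). Of 18 DNA methylation and demethylation genes 5 were called higher (27.8%, against 15.2% of all genes) and 2 lower (11.1%, against 12.52%). Tet1, which oxidises methylcytosine, read 6.13 and 5.87 in the ESC arrays and 5.26, 4.46 and 4.84 in the ICM arrays (difference 1.14 ± 0.15, adjusted p = 1.21e-06), and Dnmt3a, a de novo methyltransferase, read 8.91 and 8.75 in the ESC arrays and 7.82, 7.79 and 7.94 in the ICM arrays (difference 0.98 ± 0.21). Gadd45a, a p53 target linked to DNA repair and demethylation, read 11.80 and 11.75 in the ESC arrays and 9.62, 10.20 and 10.18 in the ICM arrays (difference 1.77 ± 0.27). Of 28 polycomb and repressor genes 5 were called higher (17.9%, against 15.2% of all genes) and 2 lower (7.14%, against 12.52%). The 5 became 3, 2 and 3 without ESC 1, ESC 2 or ICM 3. Phc1, a subunit of polycomb repressive complex 1, rose to 10.14 and 10.44 in the ESC arrays, against 8.37, 8.07 and 8.01 in the ICM arrays (difference 2.14 ± 0.19, adjusted p = 1.29e-09), whereas Bmi1, another subunit of such complexes, was at 8.18 and 8.26 in the ESC arrays and 8.99, 9.90 and 9.96 in the ICM arrays (difference -1.40 ± 0.24).

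In the LIF, JAK and STAT3 list 3 of 29 members were called higher (10.3%, against 15.2% of all genes) and 6 lower (20.7%, against 12.52%). Without ESC 1, 3 were called lower. Of the feedback inhibitors of this pathway, Socs2 was called higher, at 9.93 and 9.98 in the ESC arrays and 8.11, 7.73 and 8.39 in the ICM arrays (difference 1.88 ± 0.28). Socs3 was called lower, at 8.31 and 8.38 in the ESC arrays and 10.49, 10.31 and 9.81 in the ICM arrays (difference -1.86 ± 0.24, adjusted p = 1.34e-06). The related Socs1 and Cish were not called, with differences of 0.19 and -0.05. In the BMP, activin and Nodal list 5 of 39 were called higher (12.8%, against 15.2% of all genes), or 3 without ESC 2, and 1 lower (2.56%, against 12.52%). The ligand Nodal read 8.91 and 8.97 in the ESC arrays and 7.41, 6.95 and 7.61 in the ICM arrays (difference 1.62 ± 0.20, adjusted p = 5.90e-07), and Lefty1, its secreted antagonist and target, read 10.15 and 9.90 in the ESC arrays and 9.02, 9.03 and 9.18 in the ICM arrays (difference 0.95 ± 0.15). Both were higher in each ESC array than in each ICM array.

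The Hippo pathway decides between inner and outer cells of the embryo. In the Hippo and YAP list 7 of 22 members were called lower (31.8%, against 12.52% of all genes) and 1 higher (4.55%, against 15.2%). Without ESC 1, 2 were called lower. Amot, a junction protein that activates the pathway in inner cells, read 9.96 and 10.15 in the ESC arrays and 11.72, 12.17 and 12.46 in the ICM arrays (difference -2.06 ± 0.27, adjusted p = 1.30e-06). Lats2, the kinase it activates, read 9.62 and 9.95 in the ESC arrays and 10.87, 11.81 and 11.37 in the ICM arrays (difference -1.57 ± 0.40, adjusted p = 0.00475, or 0.0676 without ESC 1). In the FGF and ERK list 4 of 32 were called higher, a smaller share than the 15.2% of all genes. Another 5 were called lower (15.62%, against 12.52% of all genes), or 2 without ESC 1. In the Wnt list 3 of 42 were called in each direction (7.14%, against 15.2% higher and 12.52% lower of all genes). Without ICM 1, 7 were called higher, and without ICM 3, 5 were called lower. Dkk1, a secreted Wnt antagonist, was lower (difference -1.03 ± 0.11) without overlap.

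Of 44 mitosis and cell cycle genes 11 were called higher (25%, against 15.2% of all genes) and 6 lower (13.64%, against 12.52%). Ccnd1, cyclin D1, read 10.62 and 10.78 in the ESC arrays and 9.38, 9.09 and 9.30 in the ICM arrays (difference 1.45 ± 0.20, adjusted p = 4.23e-06). Plk4, the kinase of centriole duplication, and Ect2, which drives cytokinesis, were higher by 1.62 ± 0.33 and 1.44 ± 0.26. Of 28 inhibitors and p53 targets 7 were called higher (25%, against 15.2% of all genes) and 2 lower (7.14%, against 12.52%). Leaving out 1 array brought the 7 to between 5 and 8. Gas5, a growth arrest transcript and snoRNA host, was higher by 2.00 ± 0.21.

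Hprt, the X-linked purine salvage enzyme, was lower in ESCs, at 12.10 and 12.20 in the ESC arrays and 13.73, 14.46 and 14.01 in the ICM arrays (difference -1.92 ± 0.30, adjusted p = 2.33e-05). Of 43 translation factors and ribosome assembly genes 10 were called higher (23.3%, against 15.2% of all genes) and 3 lower (6.98%, against 12.52%). The 10 became 5 without ESC 1, 5 without ESC 2 and 6 without ICM 2. The nucleolar proteins Gnl3 and Nop56 were higher by 1.31 ± 0.21 and 1.18 ± 0.20.

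**Figure D4:**
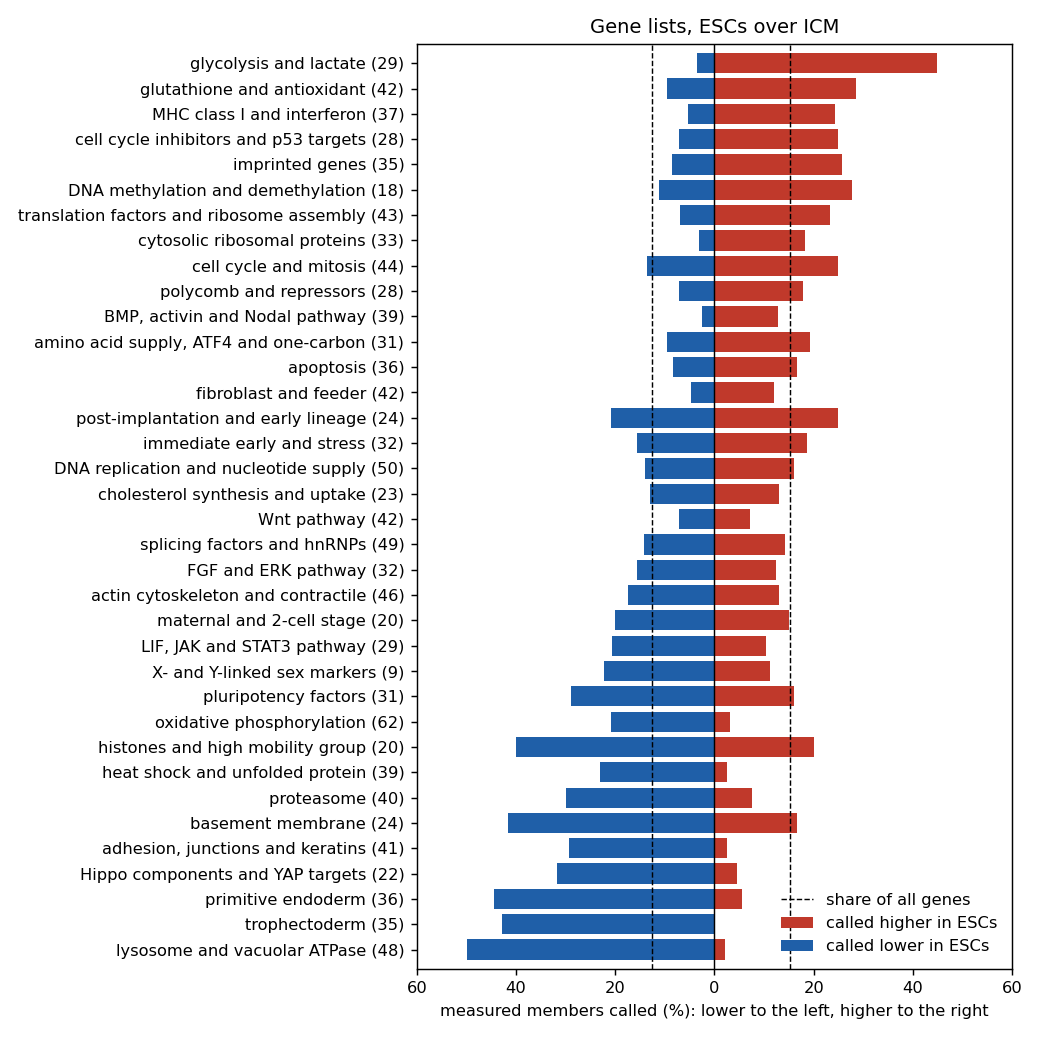
Share of measured members (percent, horizontal axis, number measured in parentheses) called higher to the right and lower to the left in ESCs for each of the 36 gene lists, with dashed lines at the shares of all 8251 genes, 15.2% and 12.52%. The glycolysis list reaches 44.8% to the right, and the lysosome, primitive endoderm and trophectoderm lists reach 50%, 44.4% and 42.9% to the left.

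The levels of the genes with the largest differences were set beside those of the other 8 groups. Pramel6 averaged 5.54 in ESCs and 11.1 ± 0.60 in ICM (SD, n = 3), and its means lay between 5.05 and 5.57 in the other 8 groups, so it was high in ICM alone. Pramel7, Crxos, Spic and Fbp2 had the same order, with ICM above all 9 other groups. Gabarapl2, at 10.6 in ESCs and 13.8 in ICM, lay between 9.95 and 10.9 in the other 8 groups. Over the 297 genes at least 2-fold lower in ESCs, group means were on the ESC side of the midpoint between ESCs and ICM for most genes. The count ran from 163 (54.9%) in MEF to 252 (84.85%) in male PGC at E13.5 and 253 (85.2%) in EGC. The genes were chosen by their ESC and ICM values, so these counts, and those for the rises below, do not measure likeness to ESCs.

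Over the 205 genes at least 2-fold higher in ESCs, the count on the ESC side of the midpoint ran between 85 (41.5%), in MEF and male PGC at E13.5, and 130 (63.4%), in NSC, with EGC at 127 (62.0%). Peg3 was high in ESCs at 11.8 and also in EGC (12.33), PGC E11.5 (12.43), SGM (13.46) and MEF (11.52), and low in ICM (7.85) and HSC (7.12). Pdk3 averaged 9.16 in ESCs and 5.99 ± 0.58 in ICM (SD, n = 3), the lowest of the 10 groups, with the other 8 between 8.14 and 10.9. Rhox5 was high in ESCs and in the 3 germ cell groups and low in EGC, at 8.02, as in ICM, at 8.08. Dppa3 was lower in ESCs (9.33) and EGC (8.24) than in ICM (11.3) and in the germ cell groups, which lay between 10.8 and 11.4.

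**Figure D5:**
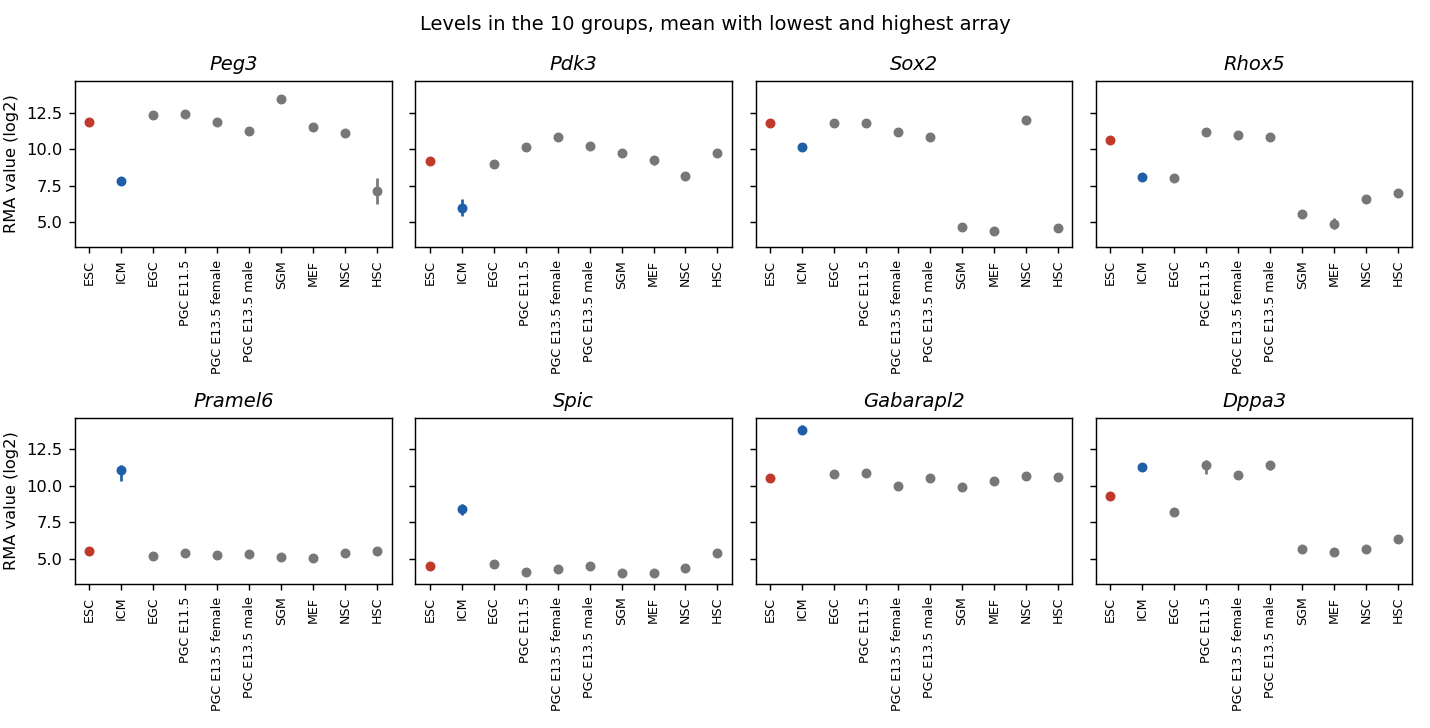
Expression values (log2, vertical axis) of 8 genes in the 10 groups, as the mean with the lowest and highest array, ESCs in red, ICM in blue and other groups in grey. Pramel6, Spic and Gabarapl2 are high in ICM against all other groups, and Pdk3 is low in ICM against all other groups.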

How the data were processed

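RNA was taken through 2 rounds of in vitro transcription and hybridised to Affymetrix MG-U74Av2 arrays, per the labels' protocols. The authors made the deposited log2 expression values with RMA, per the submitters' processing notes, whose version is not given in the sources used here. The 34 deposited columns hold 32 arrays and 2 columns that equal means of others and were left out. Of 12488 probe sets, 66 controls, 396 with several symbols and 1193 without a symbol were set aside. Symbols of 10817 of the remaining 10833 were updated by gene ID to GRCm38.p6, and 16 were kept. Detection calls were not used here.

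One limma model (version 3.58.1, R 4.3.3) held all 10 groups, ESC minus ICM was its contrast after eBayes moderation, and the p-values were adjusted by the Benjamini-Hochberg method. The fit was also run on simulated data in which every group had the same spread. That run cannot show how the wider spread of the ICM arrays affects the calls. The labels call the arrays of a group biological replicates but do not say whether these are separate cultures or litters, so p-values measure the spread between arrays, which may be in part technical. In the main fit that spread is pooled over the 10 groups and is not that of the ESC and ICM arrays alone. The members and the 36 gene lists were chosen with earlier results of these data known. Genes named are the 12 largest rises and falls called without overlap, up to 4 called members of each list by size, the 10 with the largest ICM range at a mean of 8 or more, members of the pluripotency, primitive endoderm and trophectoderm lists, sex markers, and those said to be named after their values were seen. Replicate numbers were not taken as pairs, since only 2 are shared between the groups and the residual correlations of 0.139 and 0.161 are weak. Alternatives varied the arrays in the fit, their weights, scaling, probe sets, a filter at 7 and the replicates. The fit with ICM 3 as the only ICM array was chosen after seeing the data.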

Additional observations from a re-analysis of the deposited data

How the results depend on the processing

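Over probe sets, the count called higher (1655) was 423 with the ESC and ICM arrays alone, 1098 with array weights and 1034 with a filter at a group mean of 7, and 917 to 1747 when 1 array was left out. The count called lower (1306) was 436 with the ESC and ICM arrays alone and 795 to 1317 when 1 array was left out, with the lowest values without ESC 1. Calls of at least 2-fold kept within 225 to 274 higher and 306 to 400 lower when 1 array was left out. Distinct list members called higher (169) were 68 with the 5 arrays alone and 115 to 178 with 1 array left out, and those called lower (192) were 77 and 125 to 191. With the replicate number as a block, 1581 probe sets were called higher and 1280 lower. The numbers are shared by 2 pairs only, so this is not a paired design. With ICM 3 as the only ICM array, the sign turned, among named genes called with all arrays or in that fit, for Cldn4 (0.14), Fabp3 (0.63), Gata3 (0.094), Gdf3 (-0.70), Id2 (0.97), Lgals1 (2.09) and Wnt3a (0.13). The mean over a gene's probe sets turned it for Cubn (-0.91), Gata6 (-0.52) and Fzd3 (0.069), and plain probe sets only for Fzd3 (0.56). The cause was not tested. With 2 and 3 arrays, small differences were beyond detection.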

Other observations

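Although 4 of the 12 largest rises lie on the X chromosome, X-linked genes as a whole were called at shares near those of the autosomes. Of 259 X-linked genes 45 were called higher in ESCs (17.4%) and 38 lower (14.7%), against 1205 higher and 993 lower of 7969 autosomal genes, which is 15.1% and 12.46%.

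The 10 genes with the largest ICM range at a mean of 8 or more included Lgals1, which encodes the lectin galectin-1, and Id2, an inhibitor of helix-loop-helix factors. Lgals1 read 11.76 and 12.01 in the ESC arrays and 13.45, 13.57 and 9.79 in the ICM arrays, so that ICM 3 alone lay below the ESC arrays. Id2 read 9.73 and 9.93 in the ESC arrays and 11.03, 12.41 and 8.86 in the ICM arrays. Neither was called, with differences of -0.38 ± 0.56 and -0.94 ± 0.49.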
